A study of Mus musculus with 16 samples.

Results

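The core loop of the circadian clock was followed through 10 genes in inguinal white adipose tissue, which lies under the skin of the groin: Arntl (the gene of the protein BMAL1), Clock, Npas2, Per1, Per2, Per3, Cry1, Cry2, Nr1d1 and Nr1d2. They were chosen by name with earlier results of these data known, as were the lists of other clock genes below. Counts of calls among them therefore describe these genes and are not an independent test. All 10 core genes were found among the 16091 genes of the table and among the 14189 that passed the filter on low values. All mice were of strain C57BL6/J. They ate a control diet or a high-fat diet and were either left untreated or given AF1447, an antibody that binds the growth factor PDGFcc, which made 4 groups of 4 libraries. The antibody was injected into the peritoneum from 6 weeks of age at 50 mg/kg in a volume of 100 µl, with 2 days between doses over a period of 2 weeks. Every library was made from poly-A RNA of the whole fat pad. Values are normalized counts as the authors deposited them, with library totals between 24.02 and 28.15 in units of 1e6. Since the labels name no separate animals, the p-values reflect only how far these samples spread, and some of that may be technical. Not given in the sources used here are the hour at which tissue was taken, the age of the untreated mice, the length of the diets and any control injection.

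The clock is a feedback loop of transcription that runs in nearly every cell, adipocytes included. BMAL1 pairs with CLOCK or its relative NPAS2, binds E-box elements and switches on the Per, Cry and Nr1d genes. PER and CRY proteins then block BMAL1 and CLOCK, while the nuclear receptors NR1D1 and NR1D2 (REV-ERB alpha and beta) repress Arntl and Npas2 through ROR elements, so that Arntl RNA peaks roughly opposite to most of the other transcripts. A further element, the D-box, is bound by the activators DBP, TEF and HLF and the repressor NFIL3, which are themselves clock outputs. In fat, the loop is known for giving lipid storage and lipolysis a daily rhythm.

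The elements through which the loop is wired were read in the promoters, because members moved in opposite directions. RefSeq windows on GRCm38.p6, from 250 bases before to 50 bases after a start site, were held for 9 of the 10 genes (13 start sites), and Per2 was not among them. Each motif was searched on both strands in these windows and in all 32851 windows of the table. The E-box CACGTG was found in 7.15% of all windows, the related sequence CACGTT in 4.68%, the D-box TTATGTAA in 0.938% and the ROR element core TAGGTCA in 2.61%. At least 1 of these motifs was present in 6 of the 13 windows, which belong to 6 genes, and in 14.6% of all windows. Stretches from 4 of them are given 5′ to 3′ on the gene's strand, with the motif letters in capitals.
Per3, chr4:151044786-151044895, minus strand: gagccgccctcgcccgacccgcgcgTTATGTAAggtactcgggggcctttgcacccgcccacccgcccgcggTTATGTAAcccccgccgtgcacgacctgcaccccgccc
Cry1, chr10:85185085-85185164, minus strand: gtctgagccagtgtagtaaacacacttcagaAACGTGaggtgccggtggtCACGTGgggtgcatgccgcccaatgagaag
Per1, chr11:69098749-69098828, plus strand: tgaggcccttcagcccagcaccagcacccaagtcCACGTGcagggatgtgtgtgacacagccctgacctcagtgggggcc
Arntl, chr7:113207530-113207559, plus strand: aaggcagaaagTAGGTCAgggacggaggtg

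Per3 is shown because it held 2 D-boxes, 205 to 198 and 158 to 151 bases before its start. Cry1 is shown for an E-box 60 to 55 bases before its start and, on the other strand, a CACGTT 79 to 74 bases before it. The E-box of Per1 lay 166 to 161 bases before its listed start site, and the stretch lies inside the annotated gene but outside its exons. The Arntl stretch lies within an exon and holds the ROR element core 31 to 37 bases after the second of its listed start sites. Cry2 and Nr1d1 each held CACGTT on the other strand, at 166 to 161 and 28 to 23 bases before the start, and none of the 4 motifs was found in the windows of Clock, Npas2 and Nr1d2. These matches describe the letters in the windows and are not measurements of binding.

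The members differed widely in level. Per kilobase of exon, Nr1d1 had the highest level at 2320 ± 462 normalized counts (mean and SD over 16 libraries), and it was above every other member in all 16 libraries. Nr1d2 followed at 532 ± 81.6, Per1 at 433 ± 112, Cry2 at 371 ± 58.8 and Per3 at 262 ± 104. Per2 lay at 160 ± 51.0, Clock at 127 ± 24.4, Cry1 at 64.4 ± 13.0, Arntl at 28.5 ± 17.3 and Npas2 at 17.7 ± 10.7. The order was least fixed for Nr1d2 over Per1, Per1 over Cry2 and Per2 over Clock, each of which held in 12 of 16 libraries. Nr1d1, at chromosome 11, 98767932 to 98775333 (ENSMUSG00000020889) on the minus strand of GRCm38, shares 263 exon bases, 8.55% of its exon length, with Thra on the opposite strand. The sources used here do not say if counting used strand, so the level of Nr1d1 is uncertain to that extent.

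The tissue label was checked against markers. All 7 adipocyte genes were present in every library, with a summed level of 523800 to 698200 normalized counts. Skeletal muscle genes (8 of 8 in the table, Ckm and Myh4 at 0 in 2 libraries each and Pvalb in 1) summed to 240.9 to 28730 in untreated and 27480 to 162400 in antibody libraries on control diet, and to 5416 to 485500 and 149.4 to 7987 on high-fat diet. The highest of these sums was in high-fat untreated replicate 2, which earlier work on these files had doubted together with control-diet untreated replicate 3. The limma fits were repeated without that pair, whereas the correlations with Arntl and the within-group SDs were not. Macrophage genes (5 of 5) summed to 19070 to 43350, beige and brown adipocyte genes (5 of 5) to 1225 to 74650, blood genes (5 of 5) to 8839 to 21660 and lymphocyte genes (6 of 6) to 60.12 to 236.4 over the 16 libraries, and their part in the results was not tested.

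**Figure D1:**
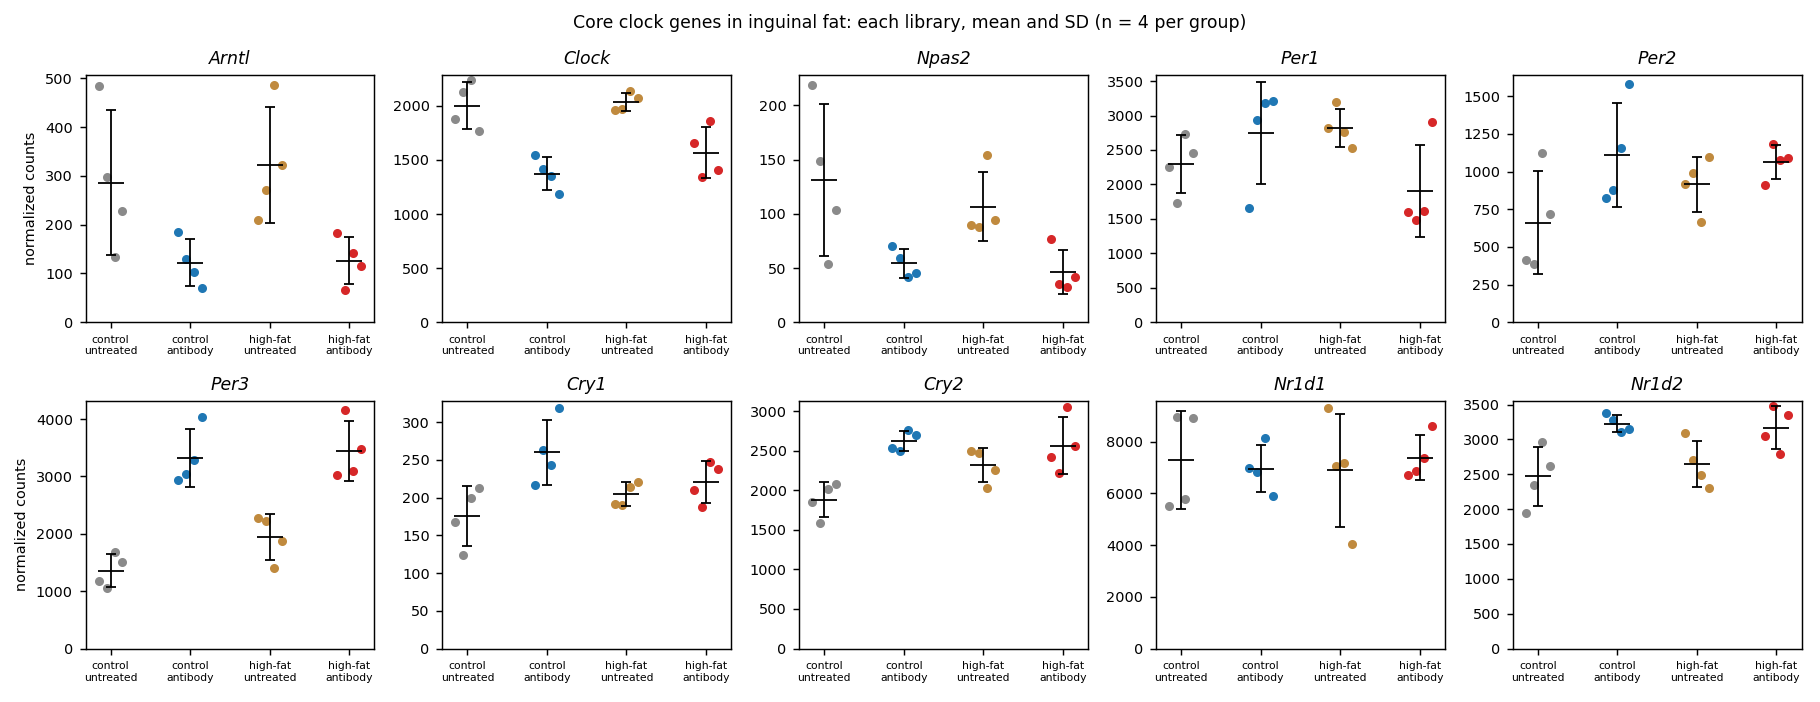
Normalized counts of the 10 genes in each library (points, 4 per group), with the group mean (long line) and SD (error bar), each panel on its own linear axis from 0. Per3 is the member whose 8 antibody libraries, from 2939 upward, all lie above its 8 untreated libraries, which end at 2280.

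With antibody, the activators of the loop were lower and several of its repressors higher. Averaged over the diets, Arntl, Npas2 and Clock fell while Per3, Cry2 and Nr1d2 rose, which made 6 of 10 members past an adjusted p of 0.05 in limma, against 2.52% of all 14189 genes tested (1.54% higher and 0.987% lower). The median absolute log2 change of the members was 0.40, beside 0.09 over all genes. Nr1d1, Per1, Per2 and Cry1 did not pass. In bulk tissue, fewer cells of a type and less RNA per cell cannot be told apart. The hour at which tissue was taken is not given for any group, so its part in these differences was not tested.

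Arntl encodes the partner without which the loop cannot run, and lies at chromosome 7, 113207465 to 113314126 (ENSMUSG00000055116), plus strand. Its untreated libraries held 485.0, 297.0, 133.4 and 228.5 normalized counts on control diet and 209.4, 270.2, 487.0 and 322.1 on high-fat diet. Its antibody libraries held 184.1, 129.4, 103.9 and 69.39 on control diet and 182.6, 66.48, 141.7 and 114.7 on high-fat diet. On high-fat diet every antibody library lay below every untreated library, whereas on control diet untreated replicate 3 fell among the antibody libraries. The log2 change was -1.26 ± 0.28 (SE, limma, adjusted p = 0.0309), a level 2.4-fold lower with antibody.

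Npas2, which can stand in for CLOCK beside BMAL1, lies at chromosome 1, 39193731 to 39363236 (ENSMUSG00000026077), plus strand. Untreated libraries held 218.9, 149.1, 53.89 and 103.9 on control diet and 90.17, 88.11, 153.9 and 93.99 on high-fat diet. Antibody libraries held 70.22, 59.56, 41.68 and 45.52 on control diet and 76.66, 35.2, 32.67 and 41.45 on high-fat diet. As for Arntl, the groups were separate on high-fat diet and overlapped on control diet through untreated replicate 3. The log2 change was -1.17 ± 0.26 (limma, adjusted p = 0.0306), or 2.25-fold lower.

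Clock, the DNA-binding partner of BMAL1, lies at chromosome 5, 76209868 to 76304792 (ENSMUSG00000029238), minus strand. Untreated libraries held 1874, 2125, 2237 and 1767 on control diet and 1964, 1971, 2139 and 2077 on high-fat diet. Antibody libraries held 1544, 1418, 1348 and 1185 on control diet and 1653, 1347, 1861 and 1405 on high-fat diet. The groups were separate on each diet. The change was smaller than for Arntl and Npas2 but more even, at a log2 difference of -0.47 ± 0.08 (limma, adjusted p = 0.00676), or 1.38-fold lower, and Clock ranked 39 of 14189 genes by p.

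Per3, the Period gene that is least needed for the rhythm itself, gave the strongest signal of the loop. It lies at chromosome 4, 151003652 to 151044665 (ENSMUSG00000028957), minus strand, and its promoter carried the pair of D-boxes printed above. Untreated libraries held 1176, 1058, 1689 and 1513 on control diet and 2280, 2225, 1412 and 1870 on high-fat diet. Antibody libraries held 2939, 3035, 3282 and 4045 on control diet and 3027, 4163, 3095 and 3485 on high-fat diet. All 8 antibody libraries were above all 8 untreated libraries, a separation seen in 0.444% of all genes in either direction and in 0.331% in this direction, and in no other member. The log2 change was 1.07 ± 0.12 (limma, adjusted p = 0.00132), or 2.1-fold higher, which ranked Per3 at 3 of 14189 genes.

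The other Period genes did not pass. Per2, a main brake on BMAL1 and CLOCK (ENSMUSG00000055866, chromosome 1, 91415982 to 91459324, minus strand), held 413.1, 387.7, 1122 and 718.3 in untreated and 824.5, 878.4, 1156 and 1581 in antibody libraries on control diet. On high-fat diet it held 915.7, 991.1, 667.0 and 1094 without and 907.8, 1180, 1075 and 1088 with antibody. The groups overlapped on each diet, and its log2 change of 0.53 ± 0.20, with a 95% interval of 0.10 to 0.97, did not pass (limma, adjusted p = 0.195). Without control-diet untreated replicate 3, the highest of its group, limma gave an adjusted p of 0.0425.

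Per1, which responds quickly to hormones as well as to the clock (ENSMUSG00000020893, chromosome 11, 69095217 to 69109960, plus strand), differed in sign between diets. It held 2254, 1732, 2729 and 2454 in untreated and 1652, 2929, 3176 and 3217 in antibody libraries on control diet. On high-fat diet it held 2817, 3194, 2756 and 2532 without and 1604, 1490, 1612 and 2903 with antibody. In each antibody group 1 library stood apart, replicate 1 at the low end on control diet and replicate 4 at the high end on high-fat diet. The averaged log2 change was -0.20 ± 0.16 (limma, adjusted p = 0.607), with a 95% interval of -0.54 to 0.15.

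The cryptochromes, which bind PER proteins and carry most of the repression, were both higher with antibody in mean. Cry2 (ENSMUSG00000068742, chromosome 2, 92403646 to 92434043, minus strand) held 1850, 1586, 2018 and 2074 in untreated and 2529, 2493, 2755 and 2698 in antibody libraries on control diet, which did not overlap. On high-fat diet it held 2496, 2471, 2034 and 2259 without and 2422, 2216, 3056 and 2564 with antibody, which did overlap. Its log2 change was 0.31 ± 0.07 (limma, adjusted p = 0.037), or 1.24-fold higher.

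Cry1, whose promoter stretch with an E-box is printed above (ENSMUSG00000020038, chromosome 10, 85131700 to 85185064, minus strand), held 167.2, 123.4, 199.4 and 212.7 in untreated and 216.6, 263.0, 242.5 and 318.3 in antibody libraries on control diet. On high-fat diet it held 191.7, 189.6, 214.5 and 220.9 without and 209.8, 187.0, 247.6 and 237.3 with antibody. The control-diet groups were separate and the high-fat groups were not. The averaged log2 change of 0.34 ± 0.11 did not pass (limma, adjusted p = 0.133).

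Of the REV-ERB genes, Nr1d2 passed and Nr1d1 did not, and the difference between them was not tested. Nr1d2 (ENSMUSG00000021775, chromosome 14, 18204054 to 18239127, minus strand) held 1943, 2352, 2958 and 2619 in untreated and 3372, 3277, 3109 and 3144 in antibody libraries on control diet. On high-fat diet it held 3085, 2700, 2487 and 2307 without and 3050, 3475, 2787 and 3354 with antibody. The groups were separate on control diet and overlapped on high-fat diet, and the averaged log2 change was 0.33 ± 0.08 (limma, adjusted p = 0.0465), or 1.26-fold higher.

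Nr1d1, a strong repressor of Arntl and a commonly used marker of clock phase, held 5511, 8946, 5794 and 8898 in untreated and 6971, 6806, 8142 and 5904 in antibody libraries on control diet. On high-fat diet it held 9312, 7054, 7156 and 4029 without and 6711, 6853, 7370 and 8595 with antibody. The antibody libraries lay inside the range of the untreated ones on each diet. The averaged log2 change was 0.06 ± 0.16 (limma, adjusted p = 0.91), with a 95% interval of -0.27 to 0.39, which holds a change of the size seen in Nr1d2 (0.33) but not those of Per3 or Arntl.

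**Figure D2:**
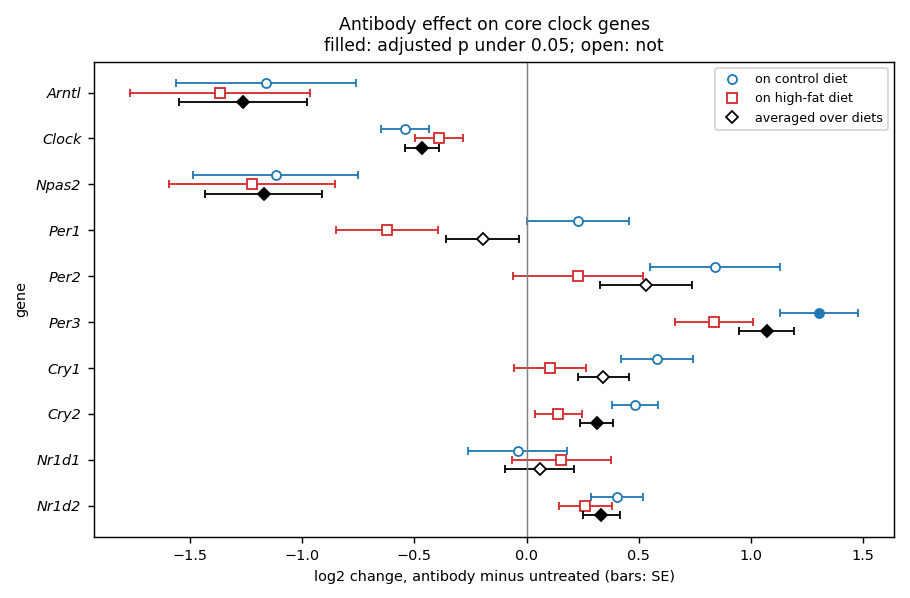
Log2 change of each gene with antibody (x axis, antibody minus untreated; bars are SE from limma) on control diet (circles), on high-fat diet (squares) and averaged over the diets (diamonds), filled where the adjusted p was under 0.05. Arntl, Clock and Npas2 lie left of 0 and Per2, Per3, Cry1, Cry2 and Nr1d2 right of it on each diet, while Per1 and Nr1d1 change side.

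These calls rest on different amounts of support. Per3 and Clock passed in all 25 alternative analyses, with adjusted p no higher than 0.00817 and 0.0199 in limma, whereas Arntl and Npas2 passed in 16 each (highest adjusted p 0.0735 and 0.0717), Cry2 in 14 (0.0835) and Nr1d2 in 9 (0.112). With 1 library left out, 2 of 10 members were called without control-diet untreated replicate 2, without control-diet antibody replicate 2, 3 or 4, without high-fat untreated replicate 3 or 4, or without high-fat antibody replicate 4, and 3 of 10 without high-fat antibody replicate 2. No sign changed in these 6 genes. Without the pair of doubted libraries 7 of 10 were called, the same 6 with adjusted p from 0.0011 to 0.0365 and Per2 (log2 change 0.71, limma, adjusted p = 0.0494). The median log2 change of the 8 muscle genes was 4.15 with antibody on control diet and -5.59 on high-fat diet (0 of 8 called on either), and the part of muscle RNA in the members' values was not tested.

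Taken on each diet alone, fewer changes passed. On control diet Per3 was the 1 member called in limma, at a log2 change of 1.30 ± 0.17 (adjusted p = 0.0125), against 0.0987% of all genes. Of the rest, Clock (-0.54 ± 0.11, adjusted p = 0.0729) and Cry2 (0.48 ± 0.10, adjusted p = 0.0836) were nearest to the threshold. Cry1 gave 0.58 ± 0.16, Nr1d2 0.40 ± 0.12, Npas2 -1.12 ± 0.37, Arntl -1.16 ± 0.40 and Per2 0.84 ± 0.29, with adjusted p between 0.176 and 0.281 in limma. The call on Per3 was lost without control-diet untreated replicate 2 (adjusted p = 0.0552), without control-diet antibody replicate 3 (0.0617) and without control-diet antibody replicate 4 (0.0805). Separation of the 4 antibody from the 4 untreated libraries was seen in 5 of 10 members (Clock lower, and Per3, Cry1, Cry2 and Nr1d2 higher) and in 6.77% of all genes (3.43% higher and 3.33% lower).

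On high-fat diet 0 of 10 members were called in limma, where 0.0775% of all genes were, and 6 of 10 had an unadjusted p under 0.05, as did 13.5% of all genes. Per3 had a log2 change of 0.84 ± 0.17 (adjusted p = 0.0661), Clock of -0.39 ± 0.11 (0.144), Arntl of -1.36 ± 0.40 (0.16) and Npas2 of -1.22 ± 0.37 (0.165). Per3 passed without high-fat untreated replicate 1 (0.0282) or without control-diet untreated replicate 3 (0.046). Separation was seen in 4 of 10 members (Arntl, Clock and Npas2 lower, Per3 higher) and in 7.38% of all genes (3.91% higher and 3.47% lower). The comparisons on the 2 diets share no library, and 8 of 10 members had the same sign in both, as did 57.2% of all genes.

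Whether the antibody difference itself depended on diet was tested by the interaction, for which 0 of 10 members and 0% of all genes passed in limma. An unadjusted p under 0.05 was found for 2 of 10 members and 6.18% of all genes. Per1 gave an interaction of -0.85 ± 0.32 (unadjusted limma p of 0.0186, adjusted p = 0.66), from a change of 0.23 ± 0.23 on control diet and -0.62 ± 0.23 on high-fat diet. Cry2 gave -0.34 ± 0.15 (unadjusted limma p of 0.0346, adjusted p = 0.757), from 0.48 ± 0.10 and 0.14 ± 0.10. A difference of the antibody change between diets was therefore not shown for any member.

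No member passed in any of the diet comparisons. Without antibody, 0 of 10 members passed in limma, beside 8.15% of all genes, and 2 of 10 had an unadjusted p under 0.05, beside 30.3% of all genes. Those were Per3, higher on high-fat diet by a log2 difference of 0.52 ± 0.17 (adjusted p = 0.0695), and Cry2, higher by 0.30 ± 0.10 (adjusted p = 0.0753). Arntl differed by 0.25 ± 0.40, Clock by 0.03 ± 0.11 and Nr1d1 by -0.11 ± 0.22. With antibody on each side, 0 of 10 passed, beside 0.00705% of all genes, and Per1 had the smallest p, with a difference of -0.54 ± 0.23 (limma, adjusted p = 0.233). Averaged over antibody, 0 of 10 passed beside 19.4%, with Per3 nearest to the threshold at 0.28 ± 0.12 (adjusted p = 0.11). It passed when high-fat untreated replicate 3 was left out (0.0465). No member's high-fat libraries were all on the same side of its control-diet libraries, which 9.73% of all genes showed without antibody and 15.5% with it.

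Libraries of the same group differed in 7 of 10 members by more than in the median gene. The within-group SD on the log2 scale was 0.628 for Arntl, higher than for 95.8% of tested genes, 0.567 for Npas2 (94.7%) and 0.454 for Per2 (90.0%), with a median of 0.197 over all genes. Nr1d2 at 0.174, Clock at 0.158 and Cry2 at 0.152 were below that median. In the untreated control-diet group, replicates 1 and 2 had the higher Arntl and Npas2 and the lower Per2, Per3 and Nr1d2, and replicates 3 and 4 the reverse. Nr1d1 did not follow this split, being high in replicates 2 and 4. Its SD was 0.381 and 0.509 in the untreated groups on control and high-fat diet and 0.19 and 0.162 in the antibody groups, a difference that was not tested.

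Members were set against Arntl to see how far the libraries differed along the loop. As deviations from the group means, which take diet and antibody out, Npas2 followed Arntl at r = 0.848 over 16 libraries (adjusted permutation p = 0.00261 over 9 pairs), and Per3 ran against it at r = -0.885 (0.00081). Per2 (r = -0.82, 0.00252) and Nr1d2 (r = -0.687, 0.0321) also ran against it. Clock (0.398), Per1 (-0.391), Cry2 (-0.259), Cry1 (-0.25) and Nr1d1 (-0.07) gave no relation that passed, with adjusted permutation p from 0.29 to 0.814. Spearman's rho had the same sign for each of the 4 that passed (0.771, -0.944, -0.803 and -0.679).

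On the log2 values themselves, r with Arntl over all 16 libraries was 0.91 for Npas2 (rho 0.897, adjusted permutation p = 4.5e-05, its unadjusted p of 1e-05 being the smallest the permutations can give), 0.767 for Clock (rho 0.774, 0.00119), -0.827 for Nr1d2 (rho -0.838, 0.00018) and -0.748 for Per2 (rho -0.744, 0.00126). It was -0.558 for Cry2 (rho -0.574, 0.0373) and -0.53 for Cry1 (rho -0.447, 0.0427), but -0.128 for Nr1d1 (rho 0.015, 0.721) and 0.009 for Per1 (rho -0.138, 0.973). No pooled r is given for Per3, since its antibody and untreated libraries formed separate clusters. Without the 2 libraries farthest from the median of Arntl, high-fat antibody replicate 2 and high-fat untreated replicate 3, r was 0.887 for Npas2, 0.709 for Clock, -0.816 for Nr1d2, -0.756 for Per2, -0.644 for Cry2 and -0.763 for Cry1. For Cry1, rho did not pass (adjusted permutation p = 0.109), and r did not pass in 11 of the 16 sets that left out 1 library (highest 0.179, without control-diet antibody replicate 4). That of Cry2 did not pass in 7 of 16 (highest 0.0998, without control-diet untreated replicate 1). Npas2, Clock, Nr1d2 and Per2 passed in all 16. These permutations ran across the groups, so the pooled r and p also take in the difference between antibody and untreated libraries. As deviations from group means, Clock (r = 0.398, adjusted permutation p = 0.29), Cry2 (-0.259, 0.529) and Cry1 (-0.25, 0.538) did not pass.

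Split by treatment, r took different values in antibody and untreated libraries, a difference that was not tested. Each split pools both diets without taking out the group means. Among untreated libraries, Per3 and Per2 were higher on high-fat diet by log2 differences of 0.52 and 0.59, neither of them called. These r therefore do not tell whether the relation to Arntl itself differed, and the part of diet in them was not tested. Among the 8 antibody libraries Per3 ran against Arntl at r = -0.948 (adjusted exact permutation p = 0.0058) and Per2 at -0.848 (0.0268), and among the 8 untreated libraries the values were -0.455 (0.586) and -0.581 (0.402). Npas2 followed Arntl at 0.893 among untreated libraries (adjusted exact permutation p = 0.0467) and at 0.644 among antibody libraries (0.205). Clock gave 0.761 with antibody (0.0844) and -0.177 without (0.757), and Cry2 gave 0.179 and -0.258. These splits by treatment were chosen after seeing the data.

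**Figure D3:**
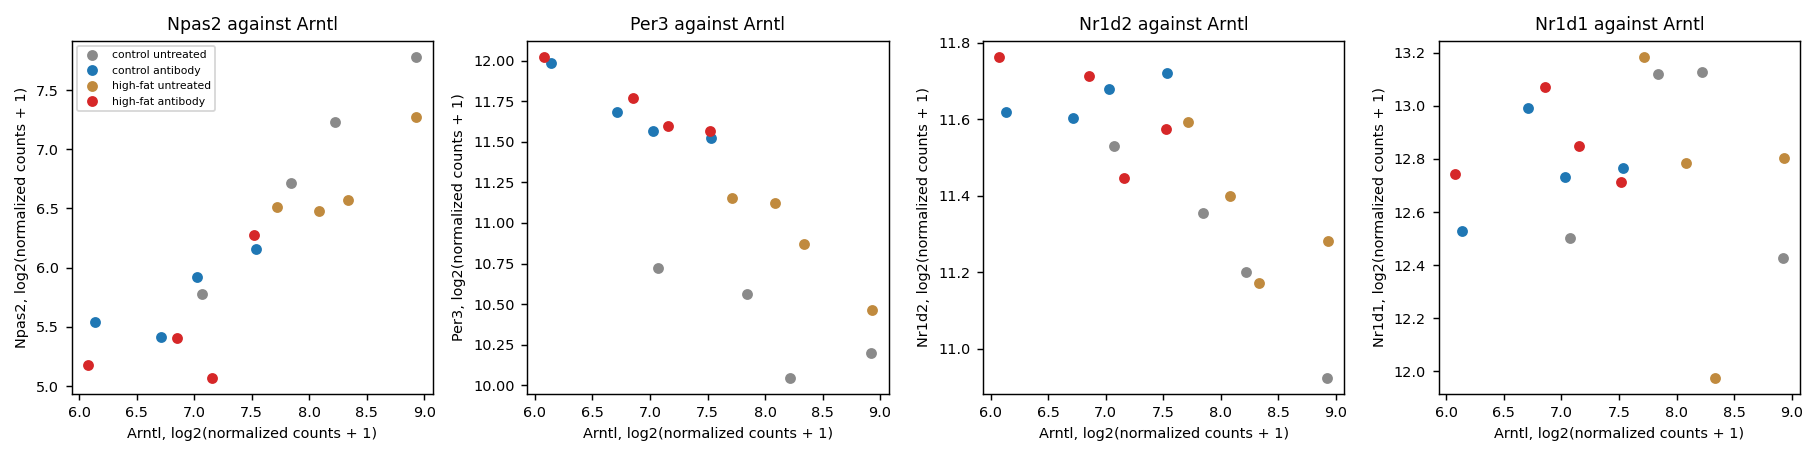
Npas2, Per3, Nr1d2 and Nr1d1 (y axes) against Arntl (x axes), all as log2(normalized counts + 1), 1 point per library coloured by group. Npas2 rises with Arntl, Per3 and Nr1d2 descend, with the antibody libraries at the low-Arntl end, and Nr1d1 shows no trend (r = -0.128).

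The genes outside the loop whose log2 values followed Arntl most closely over the 16 libraries were 9330159F19Rik (r = 0.892), Adamts4 (0.885), Sec11a (0.881), Fndc4 (0.862) and Zfx (0.861). All 5 kept an r of at least 0.692 as deviations from group means, and none reached the 0.91 of Npas2. For Nr1d1 the nearest were Brd3 (0.781), Rhof (0.78), Spata2l (0.772), Skap1 (0.77) and Zfp683 (0.761).

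The output factors of the clock gave 4 calls among 7, where 2.52% of all genes were called. Of these, Dbp, Tef and Hlf rose with antibody averaged over the diets, Nfil3 fell, and Bhlhe40, Bhlhe41 and Ciart did not pass in limma, and the median log2 change was 0.94. Tef held 3245, 3538, 6454 and 5733 in untreated and 8968, 8913, 8361 and 10140 in antibody libraries on control diet, and 6389, 6304, 4498 and 4987 against 8091, 9539, 8488 and 8634 on high-fat diet. Hlf held 271.4, 292.9, 924.0 and 887.5 against 1376, 1358, 1329 and 1675, and 885.4, 573.7, 340.8 and 512.1 against 1330, 1216, 1070 and 1275. For both, all 8 antibody libraries were above all 8 untreated ones, as for Per3.

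Dbp rose by a log2 difference of 1.21 ± 0.23 (limma, adjusted p = 0.0153), from 2487 ± 1443 to 5509 ± 530.9 normalized counts on control diet and from 2047 ± 773.7 to 4240 ± 887.5 on high-fat diet (mean and SD, n = 4). Unlike Tef and Hlf, its antibody and untreated libraries overlapped. High-fat antibody replicate 3, at 3055, lay below high-fat untreated replicate 1 (3191) and control-diet untreated replicate 4 (4439). Tef rose by 0.83 ± 0.13 (adjusted p = 0.00655) and Hlf by 1.33 ± 0.26 (0.016), and these 3 activators passed in all 25 alternatives. Nfil3, the repressor at the same D-box, fell by 0.55 ± 0.14 on the log2 scale (adjusted p = 0.0452), from 262.1 ± 81.57 to 179.7 ± 14.47 and from 206.1 ± 30.49 to 136.7 ± 26.97. It passed in 8 of 25 alternatives, among them 3 of the 16 that left out 1 library, with an adjusted p of up to 0.101 without high-fat antibody replicate 2 and of 0.0729 without the doubted pair. On either diet alone, 0 of the 7 passed.

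**Figure D4:**
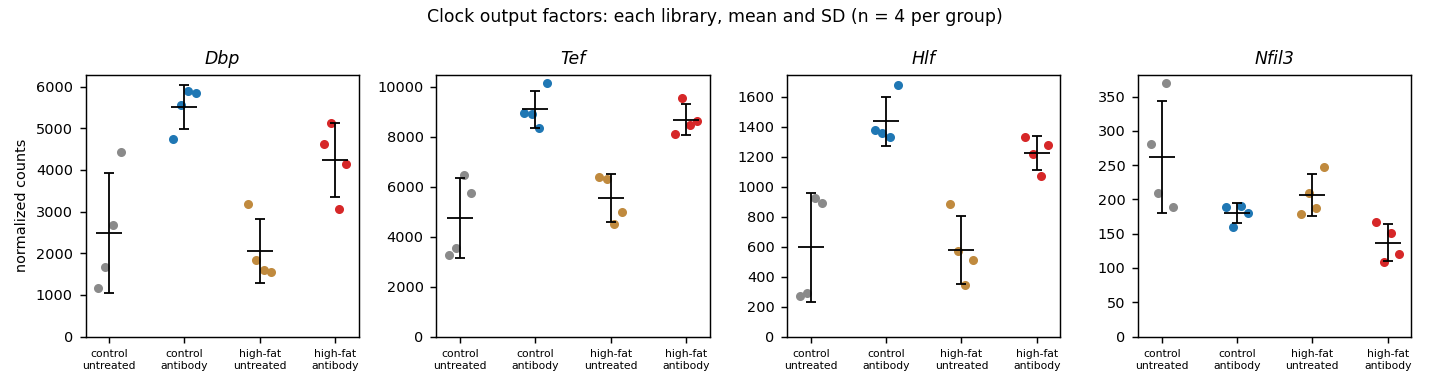
Normalized counts of the 4 output factors that passed, in each library (points, 4 per group), with group mean (long line) and SD (error bar) on linear axes from 0. The 8 antibody libraries of Tef start at 8091 and its untreated libraries end at 6454, while Nfil3 is lower in mean with antibody on each diet.

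Genes that act on clock proteins or beside the loop mostly did not pass, as was so for most genes tested. Of 12 tested kinases, ubiquitin ligases and phosphatases that set the stability of clock proteins, 0 passed for the antibody averaged over diets, beside the 2.52% of all genes (median log2 change -0.01), with Usp2, a deubiquitinase, nearest to the threshold at 0.86 ± 0.23 (limma, adjusted p = 0.0582). Of 6 further nuclear receptor and partner genes of the clock, 0 passed (median 0.25). Among 10 genes listed as rhythmic outputs, Tspan4 rose (0.51 ± 0.13, limma, adjusted p = 0.0445) and Leo1 fell (-0.31 ± 0.08, adjusted p = 0.0492). Each passed in 7 of 25 alternatives and in 2 of the 16 that left out 1 library. The adjusted p in limma reached 0.0988 without control-diet antibody replicate 4 for Tspan4 and 0.105 without high-fat untreated replicate 4 for Leo1. Without the doubted pair neither passed (0.0891 and 0.0931).

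Few genes of these lists were called for diet, where 19.4% of all genes passed averaged over antibody and 8.15% without antibody. Averaged over antibody, Tipin was higher on high-fat diet (log2 change 0.21 ± 0.06, limma, adjusted p = 0.0262; 0.0551 without control-diet antibody replicate 1 and 0.0701 without the doubted pair), and Ppp1ca, a phosphatase subunit, was lower (-0.16 ± 0.04, 0.0176; 0.0848 under quantile normalization). Without antibody, Fkbp5, a glucocorticoid-responsive chaperone, was higher by 1.07 ± 0.30 (adjusted p = 0.046) and Ppp1ca lower by 0.23 on the same scale (-0.23 ± 0.06, 0.0328). When 1 library was left out, these last calls passed in 4 and 10 of 16 fits in limma, with adjusted p of up to 0.121 and 0.109, both without control-diet untreated replicate 4, and 0.139 and 0.176 without the doubted pair.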

How the data were processed

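The deposited table of the authors gives a linear signal, named normalized counts, for 16091 genes in 16 libraries. The submitters' processing notes list limma 3.42.2, Subread 1.6.2, featureCounts, STAR 2.7.0e and fastp 0.20.1, with builds GRCm38 and mm10; the normalization is not given in the sources used here. Whole reads could not be recovered, so the depth is unknown and no count model was run. Values were taken as log2(value + 1), which understates changes of low genes. Genes above 24.49, the median library total divided by 1e6, in at least 4 libraries were tested (14189, leaving out 1902). limma 3.58.1 (R 4.3.3) was fitted with a variance trend and 1 mean per group to all 16 libraries, with two-sided tests and Benjamini-Hochberg adjustment over all genes of a contrast. The fit was tested on simulated data. Correlations used 100000 permutations, drawn within groups for deviations from group means, or exact enumeration for 8 libraries (scipy 1.17.1). Coordinates and exon lengths are from GENCODE on GRCm38, and promoter sequences from RefSeq on GRCm38.p6. All 10 members are named in every contrast; of the other lists, up to 4 genes past the threshold are named by smallest p, and for Arntl and Nr1d1 the 5 genes with the highest r. The result of 1 gene on these lists is not reported here. The members and lists were chosen with earlier results of these data known. Alternatives varied the pseudocount, filter, scaling, variance trend, library weights, replicate block and the libraries left out.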

Additional observations from a re-analysis of the deposited data

Results flagged for a closer look

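In 4 of the 64 gene and group combinations examined, 1 library lay far from its group, the gap to its nearest neighbour as a share of the range being above the 95% critical value of Dixon's test; chance flags about 1 in 20 groups. Npas2 in high-fat untreated replicate 3 was the highest of its group at 153.9 normalized counts (gap 0.884 of the range), and the same library had the highest Arntl of its group. Per1 was lowest in control-diet antibody replicate 1 at 1652 (0.859). It was highest in high-fat antibody replicate 4 at 2903 (0.882). Hlf was highest in control-diet antibody replicate 4 at 1675 (0.851), the library that also had the highest Per3 of its group.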

How the results depend on the processing

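For the antibody averaged over diets, 6 members were called. Other pseudocounts, filters and scalings gave 5 to 6, no variance trend 4 and library quality weights 8. With 1 library left out 2 to 7 were called, and the replicate block gave 3. The weights leaned on 1 library of the untreated control-diet group. Its replicate 2 had a weight of 3.77, beside 0.385, 0.28 and 0.66 for replicates 1, 3 and 4. On control diet the 1 member called became 0 with the replicate block or with the 2 groups alone, 8 with library quality weights and 0 to 2 with 1 library left out. On high-fat diet the 0 called became 5 with weights, 2 without the untreated libraries numbered 1 on both diets, and 0 to 1 with 1 library left out. For diet, the 0 called became 5 with weights without antibody, and 2 with weights and 0 to 1 with 1 library left out when averaged. For diet with antibody and for the interaction 0 were called in every alternative. Over members and named genes, 30 recomputed log2 changes gained a call and 133 lost it. The r of Arntl with Clock turned to -0.177 among the 8 untreated libraries and that with Cry2 to 0.179 among the 8 antibody libraries, splits chosen after seeing the data; the cause was not tested.

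Genes called over the whole table moved more. The averaged antibody difference had 358, from 144 to 533 with 1 library left out, 123 with the block, 593 without the pair numbered 1 and 1958 with weights. On control diet 14 became 0 to 86, 2, 89 and 757, with 0 from the 2 groups alone, 3 without the variance trend and 21 without the doubted pair. On high-fat diet 11 became 1 to 271, 2, 629 and 1330, with 4 from the 2 groups alone and 26 under quantile normalization. Averaged diet had 2757, then 1593 to 4721, 1498, 5004 and 5119, with 1562 without the doubted pair. Diet with antibody had 1, then 0 to 239, 0, 392 and 1099, with 641 from the 2 groups alone, 298 without the doubted pair and 2 with no filter. Diet without antibody had 1157, then 0 to 4119, 0, 4544 and 4380, with 0 from the 2 groups alone or without the doubted pair and 726 without the trend. The interaction had 0, then 0 to 1, 1, 327 and 0.

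The labels number the libraries 1 to 4 in each group. Deviations of same-numbered libraries from their group means correlated at -0.539 to 0.487, over 0.1 in 10 of 24 pairs. In 7 of the 24 the same number gave the highest r, so the numbers were not taken as pairing. The libraries numbered 2 were an exception, each other's best match in every pair of groups (r = 0.126 to 0.487). What they share was not tested. Fold changes of low genes are limited by the pseudocount, and sampling error by reads is unknown because the depth is.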
